A study of Homo sapiens with 4 samples.

Results

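IL6, IL11, PDGFB, LIF, HBEGF, VEGFA and PDGFA are 7 genes for secreted cytokines and growth factors, and they were followed here on 4 arrays of human embryonic stem cells treated with BMP4, the GSK3 inhibitor CHIR99021, or both. All 13 probes annotated to them were taken, out of 47321 probes on each array and 7 out of 20046 genes with a named probe. The set was put together with the arrays' results in view: IL6, IL11 and PDGFB were chosen by their lower normalized signal with CHIR99021, so that contrast is given as a description and carries no test. The other 4 genes were named together with them, also with earlier results of these data known, although no condition on their values was stated.

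HuES6 is an established human embryonic stem cell line. All 4 cultures grew with 5 ng/ml Activin A and 20 ng/ml FGF2, so the untreated cells received these factors too. For 4 h they additionally received 20 ng/ml BMP4 together with 5 µM CHIR99021, CHIR99021 alone at 5 µM, BMP4 alone at 20 ng/ml, or neither. BMP4 is a ligand of the BMP receptors, and CHIR99021 inhibits the kinase GSK3 and thereby activates canonical WNT signaling. The experiment asked which genes respond early to these inputs. RNA was hybridized to Illumina HumanHT-12 V4 bead arrays with 1 array per group, so no value below has an error, no p-value was computed, and neighbouring levels of a gene cannot be separated from array-to-array spread. Because whole cultures were measured, fewer cells of a type and less RNA per cell cannot be told apart.

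IL-6, IL-11 and LIF are ligands of the IL-6 family. Each binds a receptor complex that contains the shared subunit gp130, encoded by IL6ST, and activates JAK kinases and STAT3. In mouse embryonic stem cells LIF sustains self-renewal through this route, whereas human embryonic stem cells are maintained with FGF2 and Activin A or related factors. PDGF-B and PDGF-A form dimers that bind the PDGF receptor tyrosine kinases, VEGF-A binds the receptors encoded by FLT1 and KDR, and HB-EGF is a membrane-anchored ligand of EGFR and ERBB4 that is released by shedding.

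IL6 and IL11 belong to the same ligand family and were both lower on both CHIR99021 arrays, and their start-site regions are therefore shown. The windows run from 250 bases before to 50 after the annotated start on the gene's strand and are RefSeq sequences of GRCh38.p14. Capitals mark exact matches to searched letters. IL6 lies at chr7:22726950-22727249 on the plus strand, and IL11 at chr19:55370414-55370713 on the minus strand.
IL6: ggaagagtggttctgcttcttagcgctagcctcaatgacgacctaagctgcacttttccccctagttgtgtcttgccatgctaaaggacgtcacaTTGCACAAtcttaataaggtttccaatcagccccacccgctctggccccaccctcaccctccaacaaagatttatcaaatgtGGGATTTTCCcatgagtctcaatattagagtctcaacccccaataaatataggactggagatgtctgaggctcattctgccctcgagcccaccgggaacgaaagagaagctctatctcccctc
IL11: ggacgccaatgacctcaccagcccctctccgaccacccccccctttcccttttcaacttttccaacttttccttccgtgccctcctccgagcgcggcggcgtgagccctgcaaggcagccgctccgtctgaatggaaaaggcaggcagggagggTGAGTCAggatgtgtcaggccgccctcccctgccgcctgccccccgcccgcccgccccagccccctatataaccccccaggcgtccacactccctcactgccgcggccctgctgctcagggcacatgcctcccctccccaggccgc
In IL6 the capitals mark TTGCACAA, which matches the C/EBP letters TTGCNNAA and begins 155 bases before the start, and GGGATTTTCC, which matches the NF-kappaB letters (GGG and TTCC with any 3 bases between) and begins 73 bases before it. In IL11 they mark TGAGTCA, which matches the AP-1 letters TGANTCA and begins 96 bases before the start. The search covered both strands and 9 motifs, among them CTTTGA for TCF/LEF, which neither window holds. Of 35116 promoter windows of this length, 10.5% hold the C/EBP letters, 6.52% those of NF-kappaB, 7.71% those of AP-1 and 12.9% those of TCF/LEF. Neither window holds the letters of the cAMP response element (TGACGTCA, in 1.85% of windows), of TEAD (GGAATG, in 14.0%), of the hypoxia response element (ACGTG, in 21.4%) or of the TATA box (TATAAA, in 11.5%), nor a CArG box (in 1.29%). The single window of HBEGF holds none of the 9 motifs, and of the 4 windows of PDGFA 1 holds a CArG box and 1 holds CTTTGA. PDGFB, LIF and VEGFA had no entry in the sequence table used and were not searched. A match describes letters in a window and does not show a bound site.

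The arrays had raw median intensities of 88.7 to 93.6 and 15980 to 16762 probes with a detection p below 0.01, the fewest with CHIR99021 alone. A probe with a p below 0.01 is called detected, and a gene is represented by its brightest probe. Pluripotent stem cell markers were present on every array for 9 of the 9 with a named probe, with CHIR99021 minus untreated differences of 0.04 for POU5F1, -0.02 for NANOG and -0.91 for SOX2 on the log2 scale. All levels below are normalized log2 intensities, differences are in log2 units, and a gene is called lower or higher when it was detected on at least 1 array of the pair and differed by at least 1, that is 2-fold. Levels of different probes are not on a common scale and are not compared with each other.

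All 7 genes were detected on at least 1 array and 5 of them on all 4, the exceptions being LIF and PDGFA. With CHIR99021 against untreated cells, 3 of the 7 genes were called lower, the 3 that define the set, against 0.586% of 10747 genes tested. IL11, at -1.05, was the called gene nearest the limit, and HBEGF, at -0.65, was the next below it. In the pair of arrays that both held BMP4, which shares no array with that contrast, the same 3 genes were called lower, against 0.466% of 10732 genes. The genes were chosen with all 4 arrays in view, so this second pair is no separate check of them. With both factors against untreated cells the count was again 3 of 7, against 0.656% of 10825 genes. No member was called higher in these 3 comparisons, against 0.335%, 0.345% and 0.628% of all genes.

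**Figure D1:**
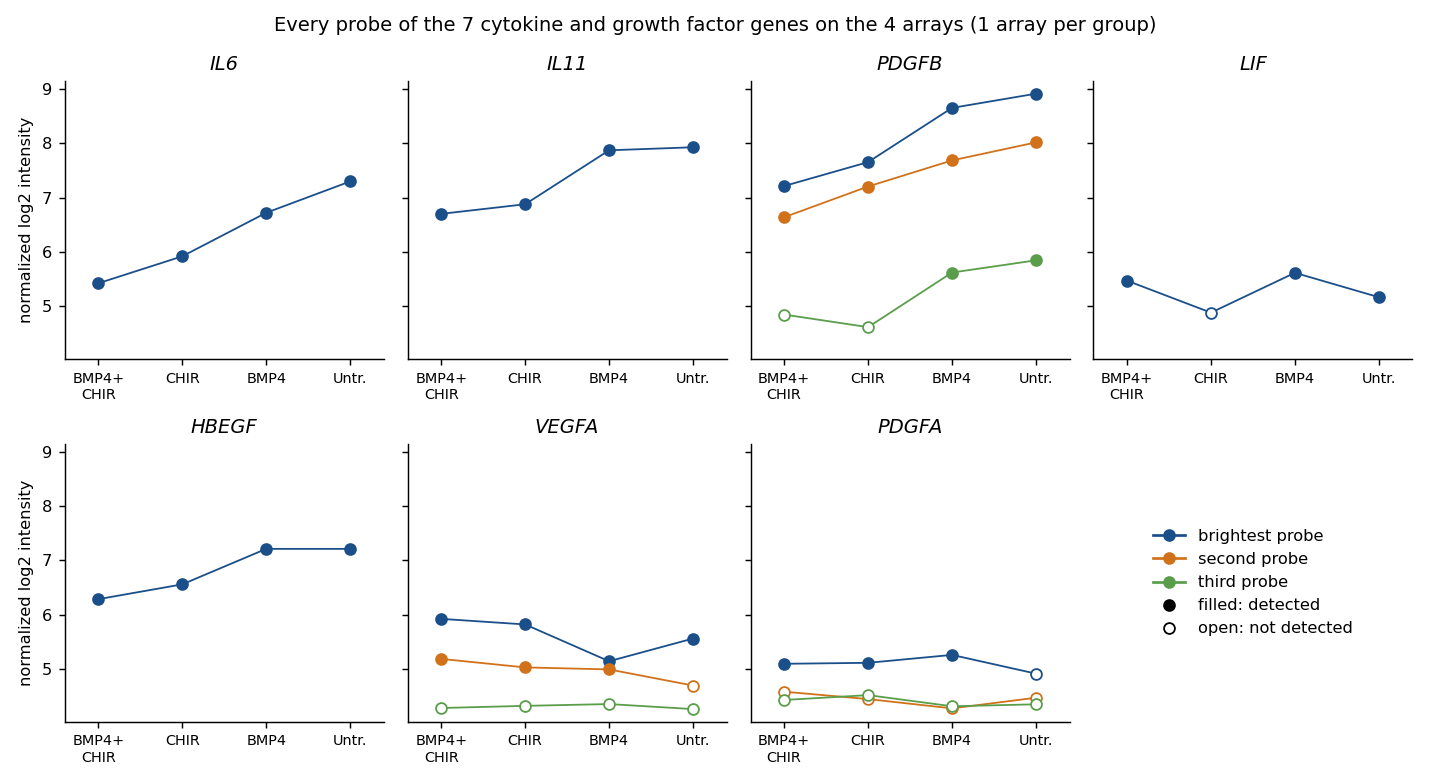
Normalized log2 intensity (vertical axis) of each of the 13 probes on the 4 arrays (horizontal axis, 1 array per group), with filled points where the probe was detected and open points where it was not. IL6, IL11, HBEGF and the 2 brighter probes of PDGFB were lower on both CHIR99021 arrays than on both arrays without it, whereas LIF, VEGFA and PDGFA were close to the detection limit on every array.

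IL6 encodes interleukin-6, an inflammatory cytokine. Its level was 5.42 with both factors and 5.92 with CHIR99021 alone, against 6.72 with BMP4 alone and 7.30 in untreated cells. The unnormalized intensities were 108, 132, 169 and 240 in that order of groups, and the probe was detected on all 4 arrays. Both CHIR99021 arrays thus lay below both arrays without it. The difference was -1.38 for CHIR99021 against untreated cells (2.60-fold lower) and -1.30 in the presence of BMP4 (2.46-fold lower), the 9th and the 12th lowest differences among all genes tested in these pairs. BMP4 was accompanied by a smaller difference in the same direction, -0.58 against untreated cells and -0.50 on top of CHIR99021. With both factors IL6 was 3.67-fold below untreated cells, a difference of -1.88 and the 4th lowest of 10825 genes, which came to -1.01 without background correction. On the arrays with both factors and with CHIR99021 alone the IL6 signal was near the detection limit, the lowest levels of detected probes there being 4.98 and 5.02. The departure from additivity, which is the CHIR99021 difference with BMP4 minus that without it, was 0.08.

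IL11 encodes interleukin-11, a cytokine that signals through gp130 with its own receptor subunit. It reached 6.70 with both factors and 6.88 with CHIR99021, against 7.87 with BMP4 and 7.93 in untreated cells, and was detected on each array with unnormalized intensities of 165, 193, 290 and 329. The levels fell into a lower pair with CHIR99021 and a higher pair without it. CHIR99021 was accompanied by 2.07-fold lower signal against untreated cells and 2.25-fold lower signal in the presence of BMP4 (-1.05 and -1.17), and both factors by 2.34-fold lower signal than in untreated cells (-1.23). BMP4 differences were -0.06 without and -0.18 with CHIR99021, the departure from additivity being -0.12.

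PDGFB encodes the B chain of platelet-derived growth factor and was measured by 3 probes. The brightest gave 7.21 with both factors and 7.65 with CHIR99021, against 8.65 with BMP4 and 8.92 in untreated cells, from unnormalized intensities of 206, 282, 447 and 582. Its CHIR99021 differences were -1.26 (2.40-fold lower) against untreated cells and -1.44 (2.71-fold lower) in the presence of BMP4, and both factors together gave -1.70 (3.26-fold lower than untreated cells). In the pair of arrays with BMP4 the value of PDGFB was the 8th lowest of 10732 genes. BMP4 differences were -0.26 without and -0.44 with CHIR99021, so PDGFB showed the same order of the 4 groups as IL6 and IL11.

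The second PDGFB probe, annotated to the other transcript variant, gave 6.64 with both factors and 7.20 with CHIR99021, against 7.69 with BMP4 and 8.02 in untreated cells. Its signal was 1.76-fold lower with CHIR99021 than in untreated cells, 2.07-fold lower in the presence of BMP4 and 2.60-fold lower with both factors than in untreated cells. The third probe was not detected on either CHIR99021 array (4.84 with both factors, 4.61 with CHIR99021) but was detected on both others (5.62 with BMP4, 5.84 in untreated cells). It was at least 1.76-fold lower with CHIR99021 and at least 1.56-fold lower in the presence of BMP4. All 3 probes thus ran in the same direction in both CHIR99021 pairs, although probes of 1 gene share the RNA of each array and check the probe rather than the treatment.

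HBEGF encodes heparin-binding EGF-like growth factor. Levels were 6.28 with both factors and 6.56 with CHIR99021, against 7.21 with BMP4 and 7.21 in untreated cells, and the probe was detected on all 4 arrays with unnormalized intensities of 140, 167, 210 and 230. The 2 CHIR99021 arrays were again the lower ones, but the differences of -0.65 (1.57-fold) against untreated cells and -0.93 (1.90-fold) in the presence of BMP4 stayed below the limit for a call. The second of these was the 59th lowest of 10732 genes. HBEGF had a BMP4 difference of 0.00 without CHIR99021 and of -0.27 with it.

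LIF did not share this pattern. It measured 5.47 with both factors and 4.88 with CHIR99021, against 5.61 with BMP4 and 5.16 in untreated cells, with unnormalized intensities between 99.1 and 117. On the CHIR99021 array its detection p was 0.023 and the probe was not detected there. The 2 arrays with BMP4 were the higher ones: the BMP4 difference was 0.45 (1.37-fold higher) against untreated cells and 0.59 (at least 1.36-fold higher) in the presence of CHIR99021. CHIR99021 differences were -0.28 (at least 1.10-fold lower) without and -0.14 with BMP4.

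VEGFA, the principal ligand of blood vessel growth, was measured by 3 probes of which 2 were detected. Its brightest probe gave 5.92 with both factors and 5.82 with CHIR99021, against 5.14 with BMP4 and 5.56 in untreated cells, so it ran opposite to IL6, IL11 and PDGFB. The unnormalized intensities were 125, 128, 104 and 122 in that order of groups, near the detection limit. The CHIR99021 difference was 0.26 against untreated cells and 0.78 (1.72-fold higher) in the presence of BMP4, the 105th highest of 10732 genes. The latter was 0.31 without background correction and 0.49 with detected probes averaged. The second probe, not detected in untreated cells, gave 5.18 with both factors and 5.03 with CHIR99021, against 4.99 with BMP4 and 4.69 in untreated cells. Its unnormalized intensities were nearly equal in the pair with BMP4, 102 with both factors and 101 with BMP4. The normalized levels of both probes were thus higher with CHIR99021 in both pairs, though little so for the second in the presence of BMP4. The probes differed in sign for BMP4 against untreated cells (-0.42 for the brighter probe and 0.30 for the other). The third VEGFA probe was detected on no array.

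PDGFA, the A chain of platelet-derived growth factor, was represented by 1 detected probe among 3. It measured 5.09 with both factors and 5.11 with CHIR99021, against 5.26 with BMP4 and 4.91 in untreated cells, where its detection p was 0.012 and it was not detected. The CHIR99021 differences of 0.20 without and -0.16 with BMP4 had opposite signs, and the mean of both was 0.02. The level of PDGFA thus stayed near the detection limit on all arrays.

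BMP4 alone produced no call among the 7 genes against untreated cells, where 0.092% of 10864 genes were called lower and 0.203% higher. On top of CHIR99021 it likewise produced none, where 0.0851% of 10573 genes were called lower and 0.331% higher. The largest BMP4 differences among the members were those of IL6 (-0.58) and LIF (0.45) against untreated cells, and of LIF (0.59) and IL6 (-0.50) in the presence of CHIR99021. Over the 7 genes the median difference was -0.65 for CHIR99021 against untreated cells, -0.93 in the presence of BMP4 and -0.93 for both factors against untreated cells, beside medians of -0.01, 0.00 and -0.01 over all genes tested. IL6, IL11 and PDGFB were chosen by their lower signal with CHIR99021. The 3 member medians above are the values of HBEGF, follow in part from that choice and are given as a description. For BMP4 the medians of the members were -0.06 against untreated cells and -0.18 on top of CHIR99021, beside 0.00 and 0.00 over all genes.

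The remaining cytokine and growth factor genes were taken from 10 ligand families with 203 further genes, leaving out BMP, WNT, NODAL and LEFTY ligands. A named probe was available for 188 of them, 68 were detected on at least 1 array and 47 on all 4. With CHIR99021 against untreated cells 1 of 66 tested was called lower, which was PGF, and in the presence of BMP4 1 of 57, which was CXCL1, and none was called higher in either pair. CXCL1 was also the only one of 61 called lower with both factors against untreated cells, although the array with both factors, used in both of its calls, did not detect it. None of 63 and 62 other ligand genes was called with BMP4 alone or on top of CHIR99021. Their median differences were -0.18 for CHIR99021 against untreated cells, -0.10 in the presence of BMP4 and -0.23 for both factors against untreated cells. BMP4 gave medians of -0.15 against untreated cells and -0.05 on top of CHIR99021. Medians over all genes tested lay between -0.01 and 0.00 in each of these comparisons. A median below 0 among these ligand genes was thus measured for BMP4 as well as for CHIR99021. The comparisons against untreated cells share that 1 array, and those without it gave the medians nearest to 0, -0.10 and -0.05.

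**Figure D2:**
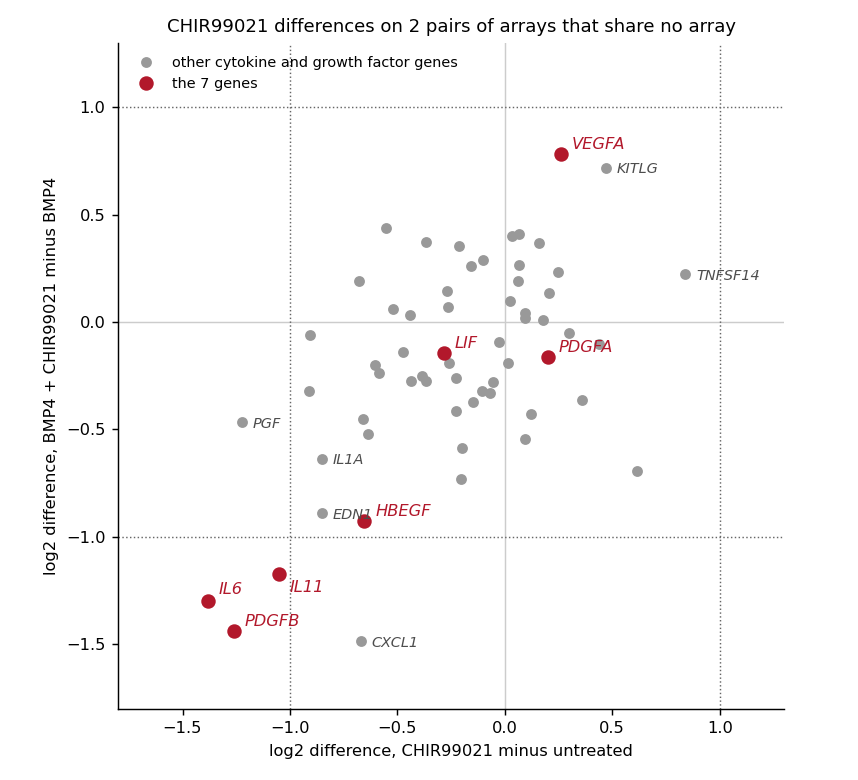
Log2 difference with CHIR99021 in the absence of BMP4 (horizontal axis) and in its presence (vertical axis) for the 7 genes (red) and 55 other cytokine and growth factor genes (grey) tested in both pairs, each point a gene and dotted lines at the limit for a call. IL6, IL11 and PDGFB are the points beyond both limits at the lower left, with HBEGF, EDN1 and CXCL1 nearest to them.

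Taking both CHIR99021 pairs together, 3 of 7 members, 0 of 55 other ligand genes and 17 of 10197 genes overall (0.167%) were called lower in each. A difference of -0.5 or lower in both pairs was measured for 4 members (IL6, IL11, PDGFB and HBEGF), for 4 of the 55 other ligand genes (7.27%) and for 182 genes overall (1.78%). A value below 0 in both pairs was measured for 5 members, for 25 of the other ligand genes (45.5%) and for 3094 genes overall (30.3%). The share for the members follows from how IL6, IL11 and PDGFB were chosen and is given as a description.

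Relatives of the 3 lower genes were read beside them. Of the other IL-6 family ligands 2 were detected: EBI3, a subunit of IL-27 and IL-35, differed by 0.12 with CHIR99021 against untreated cells and by -0.43 in the presence of BMP4, and CTF1, detected in untreated cells only, differed by -0.61 with CHIR99021 (at least 1.25-fold lower) and by -0.53 with both factors against untreated cells. Among PDGF and VEGF relatives, PDGFC differed by -0.48 and -0.14 in the same order of pairs, PDGFD by 0.09 and 0.04, and VEGFB by -0.37 and 0.37. PGF, placental growth factor, was the closest to the members: it measured 5.86 with both factors and 5.43 with CHIR99021, against 6.33 with BMP4 and 6.65 in untreated cells. Its difference of -1.23 (2.34-fold lower) with CHIR99021 was -0.47 (1.38-fold lower) in the presence of BMP4. Among EGF family ligands other than HBEGF, NRG1 differed by -0.44 and 0.03 and TGFA by -0.21 and 0.36.

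**Figure D3:**
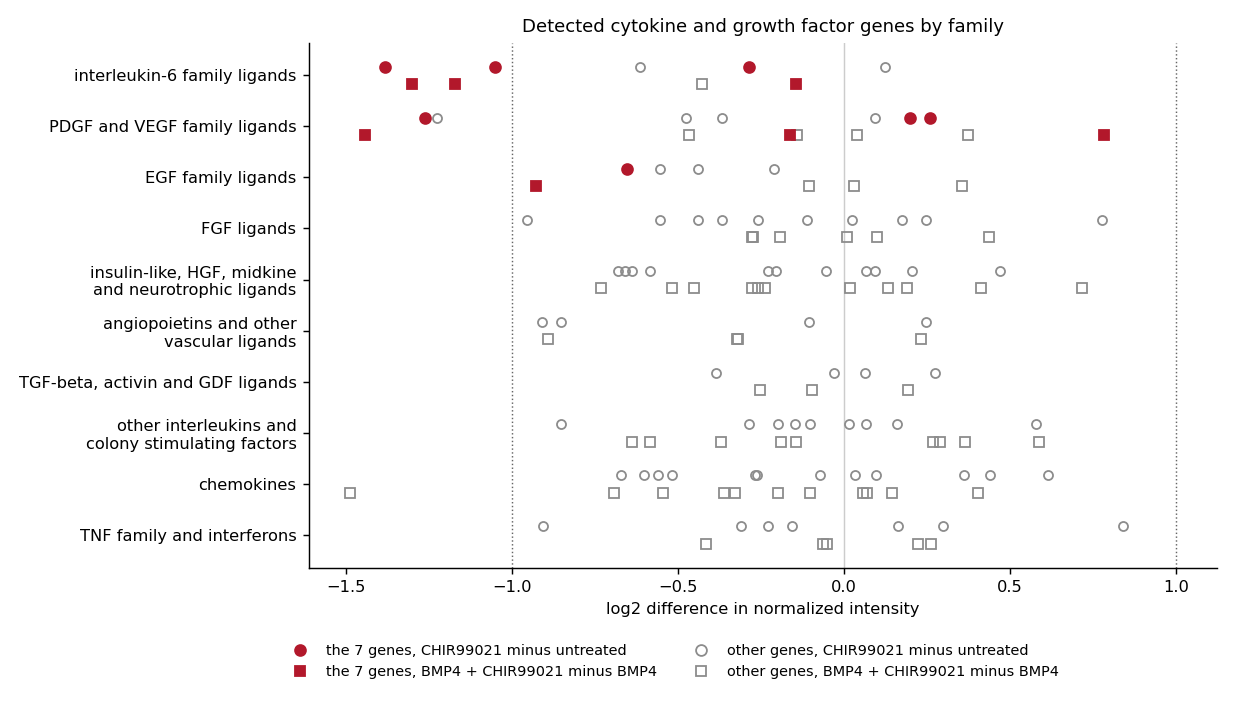
Log2 difference in normalized intensity (horizontal axis) of each detected cytokine or growth factor gene by family (rows), with circles for CHIR99021 minus untreated and squares for both factors minus BMP4, red for the 7 genes and open grey for the others, and dotted lines at the limit for a call. Outside the first 2 families the 1 value beyond the limit is that of CXCL1 in the presence of BMP4 (-1.49).

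Among all other ligand genes, the largest decreases by the mean of both CHIR99021 pairs among genes detected on all 4 arrays were in EDN1 (-0.87), PGF (-0.85), IL1A (-0.74), ADM (-0.61), ARTN (-0.58), GRN (-0.56), LTB (-0.48) and BDNF (-0.47). EDN1, which encodes the vasoconstrictor endothelin-1, measured 8.92 with both factors and 8.85 with CHIR99021, against 9.81 with BMP4 and 9.70 in untreated cells. It thus showed the same split between arrays with and without CHIR99021 as IL11, at 1.80-fold and 1.85-fold. IL1A, which encodes interleukin-1 alpha, gave 5.57 with both factors and 5.70 with CHIR99021, against 6.21 with BMP4 and 6.55 in untreated cells. CXCL1, a neutrophil-attracting chemokine, was not detected with both factors (4.67), and measured 5.08 with CHIR99021, 6.16 with BMP4 and 5.75 in untreated cells. In the presence of BMP4 it was at least 2.27-fold lower with CHIR99021.

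The largest means in the other direction were those of KITLG (0.59), which encodes stem cell factor, TNFSF14 (0.53), IL10 (0.26), ANG (0.24), PTN (0.24), CXCL12 (0.22), MST1 (0.17) and CCL26 (0.17). On the same measure IL6 was at -1.34, IL11 at -1.11, PDGFB at -1.35, HBEGF at -0.79, LIF at -0.21, PDGFA at 0.02 and VEGFA at 0.52. PDGFB, IL6 and IL11 were 7th, 8th and 17th from the lowest of 11282 detected genes. VEGFA lay just below KITLG and TNFSF14 and above IL10, although its own mean came to 0.21 without background correction.

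None of the receptors of the 7 ligands, listed together with the EGF receptor relatives ERBB2 and ERBB3, was called in any comparison. Of this list 8 of 13 were detected, with medians of -0.15 with CHIR99021 against untreated cells and 0.03 in the presence of BMP4. IL6ST, the shared gp130 subunit, measured 6.24 with both factors and 5.95 with CHIR99021, against 5.77 with BMP4 and 5.80 in untreated cells, a mean CHIR99021 difference of 0.31. IL6R and LIFR, which encode the receptor subunits for IL6 and LIF, were detected on no array, and IL11RA had no named probe. ERBB3 and ERBB2, a pair of EGF receptor relatives, had means of -0.68 and -0.23, and EGFR one of 0.16. PDGFRB, the main receptor of PDGF-B, differed by -0.10 and -0.13 in the 2 pairs.

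Genes of STAT3 response and JAK-STAT feedback, which act downstream of IL6, IL11 and LIF, were not called in any comparison, with 14 of 19 detected and medians of 0.17 with CHIR99021 against untreated cells and 0.10 in the presence of BMP4. SOCS3, an inhibitor of gp130 signaling that STAT3 induces, had a mean CHIR99021 difference of -0.39 and BCL3 one of -0.24, whereas PIM1 was at 0.48 and SOCS1 at 0.36. Among genes for shedding and processing of ligand precursors and for decay of cytokine mRNA, 14 of 15 were detected and none was called, with medians of -0.17 and -0.03 in the same order. ZFP36, which binds AU-rich elements and promotes decay of cytokine mRNAs, was at -0.65 and the shedding regulator RHBDF2 at -0.51, beside 0.39 for ADAM17, the protease that releases HB-EGF, and 0.25 for ZFP36L2.

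NF-kappaB is known for inducing IL6 in inflammation, and of its response genes 13 of 18 were detected and only CXCL1 was called. The medians had opposite signs but cover different sets of tested genes, 0.36 over 13 with CHIR99021 against untreated cells and -0.17 over 11 in the presence of BMP4. IER3 (-0.64) and NFKBIA (-0.34) had the lowest means among those detected on all 4 arrays, and NFKBIE (0.33) and RELB (0.30) the highest. Of hypoxia response genes other than VEGFA, 18 of 20 were detected and none was called, with medians of 0.03 and -0.08. ADM (-0.61) and NDRG1 (-0.58) were lowest, and DDIT4 (0.45) and HK2 (0.17) highest by the mean of both pairs.

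The genes whose levels over the 4 arrays were most like the average of IL6, IL11 and PDGFB were found by the Euclidean distance between profiles centred on each gene's mean, over 9298 genes detected on all arrays and the 4 groups. They were MILIP (distance 0.08), HBP1 (0.31), FLRT3 (0.33), ANO8 (0.37), SCHIP1 (0.39), NABP1 (0.40), LMCD1 (0.40) and UBALD2 (0.42). The 3 genes themselves lay at 0.23 (IL6), 0.27 (IL11) and 0.10 (PDGFB), with HBEGF at 0.53, LIF at 1.36, PDGFA at 1.39 and VEGFA at 1.82. HBP1, which encodes a transcriptional repressor, gave 5.61 with both factors and 5.86 with CHIR99021, against 7.21 with BMP4 and 7.22 in untreated cells.

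Markers of other cell types were read beside the members. Of 8 endothelial markers 4 were detected (CDH5, TEK, ESAM and TIE1), 3 of them on all arrays, whereas TIE1 was not detected on either CHIR99021 array. All 4 were lower with CHIR99021 in both pairs, as were 30.3% of all genes tested in both, with medians of -0.59 and -0.35. PECAM1, VWF, ERG and EMCN were detected on no array. The summed unnormalized intensity of the endothelial markers was 1226 with both factors and 1319 with CHIR99021, against 1447 with BMP4 and 1538 in untreated cells. All 8 probes and their background are included. Of 10 fibroblast and mesenchymal markers 6 were detected, 5 of them on all arrays (COL1A1, COL1A2, PDGFRB, TWIST1 and THY1), with DCN, LUM, POSTN and FAP detected on none. The medians of those detected were -0.26 with CHIR99021 against untreated cells and -0.21 in the presence of BMP4, with 5 of 6 below 0 in each pair. The sum over all 10 probes, background included, was 3313 with both factors and 3990 with CHIR99021, against 3749 with BMP4 and 4570 in untreated cells. All sums here are unnormalized, so the brightness of each array enters them. The 9 pluripotent stem cell markers summed to 11044 with both factors and 12655 with CHIR99021, against 10823 with BMP4 and 12223 in untreated cells. The part of endothelial and fibroblast cells in the lower signal of IL6, IL11 and PDGFB was not tested. Of 9 blood and macrophage markers with a named probe 5 were detected, CD68 and AIF1 on all arrays, and PTPRC, CD14, SPI1 and CD3E were detected on none. The medians were 0.47 over the 3 tested with CHIR99021 against untreated cells and -0.11 over the 4 tested in the presence of BMP4. The sums over all 9 probes ran from 925 to 994. Of 5 platelet and megakaryocyte markers 3 were detected, PPBP and GP1BA on all arrays, and PF4 and GP9 on none, with medians of 0.13 and 0.03 and sums of 522 to 550.

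The direction and size of the CHIR99021 differences of the 7 genes were compared under 6 ways of processing. PDGFB remained below -1 in both pairs under each of them. Without background correction IL6 was at -0.80 and -0.64 and IL11 at -0.74 and -0.81 in the 2 pairs, and both were then no longer called in either. With an offset of 50 in place of 16, IL11 was at -0.87 and -0.96 and IL6 at -0.86 in the presence of BMP4, also below the limit. For both factors against untreated cells, IL11 was at -0.85 without background correction and was not called. In the deposited normalized values, IL6, IL11 and PDGFB were called in both pairs. No CHIR99021 difference of a member changed sign in either pair under any of the 6.

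**Figure D4:**
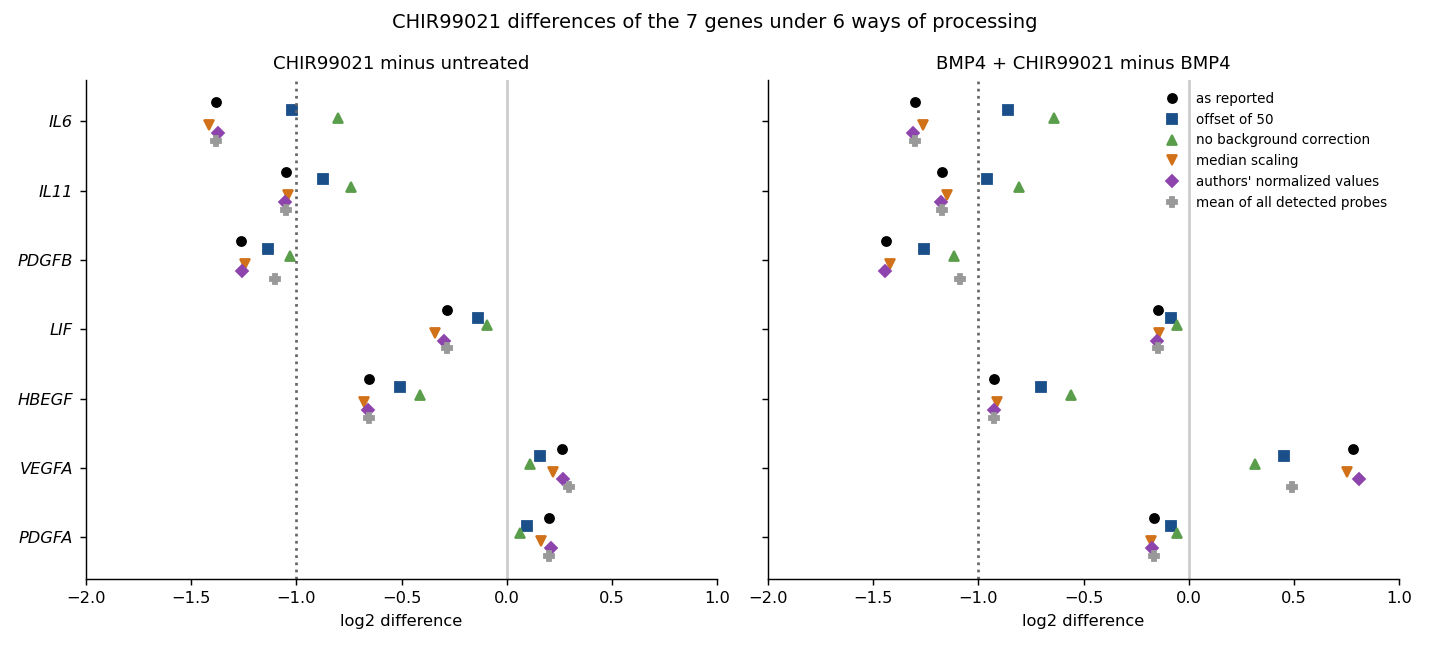
Log2 difference (horizontal axis) with CHIR99021 against untreated cells (left panel) and in the presence of BMP4 (right panel) for the 7 genes (rows) under 6 ways of processing (symbols), with the dotted line at the limit for a call. The values of IL6 span -1.41 to -0.80 in the left panel, those of IL11 -1.05 to -0.74 and those of PDGFB -1.26 to -1.03.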

How the data were processed

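Total RNA of HuES6 cells was measured on 4 Illumina HumanHT-12 V4 bead arrays, 1 per group, and groups were taken from the treatment in the labels. The authors deposited linear, unnormalized probe intensities, each paired with a detection p-value from GenomeStudio in steps of 1 in 770. Its version was not given in the sources used here. A second deposited table holds intensity values that the authors normalized by cubic spline after background subtraction, of which 26.7% are at 0 on each array.

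Raw intensities were background-corrected by normexp from the detection p-values with an offset of 16, quantile-normalized and log2-transformed (limma 3.58.1, R 4.3.3). This offset shrinks the differences of probes near background. Symbols came from a platform annotation updated by Entrez ID through RefSeq, which matched 30073 of 30120 listed probes: 30112 had 1 symbol, 8 had several and were not named, and 17201 were not listed. The probe with the highest mean represented a gene. Genes were tested where detected (p below 0.01) on at least 1 array of a pair and called at a log2 difference of at least 1, the size rule. The median of a list covers the genes tested in that pair, which can differ between pairs. Where the dimmer array did not detect the probe, the fold is a lower bound against the higher of its own level and the lowest level of any detected probe on that array.

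The members, gene lists and rules were chosen with earlier results of these data known. Named besides the members are ligand genes past the size rule, the 8 largest mean CHIR99021 differences each way, the 2 largest each way per related list, any related gene past the size rule, and the 8 nearest profiles. Other genes of the members' families, and further receptors, were named after their values were seen. Precision is limited by there being 4 arrays. Normalization and calling were tested on simulated data, where changes larger than the size rule were given to probes well above background. That test does not cover calls of dim probes or differences near the limit. In all, 7 alternatives were tried.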

Additional observations from a re-analysis of the deposited data

Results flagged for a closer look

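For VEGFA the BMP4 difference pointed in opposite directions without and with CHIR99021: 0.10 for both factors against CHIR99021 and -0.42 for BMP4 against untreated cells, a departure from additivity of 0.52 on the log2 scale, which was 0.19 with detected probes averaged.

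PDGFA had opposite signs in both of its contrasts, with a departure of -0.36. Its CHIR99021 difference was -0.16 with BMP4 and 0.20 without it, and its BMP4 difference was -0.02 with CHIR99021 and 0.35 without it. With 1 array per group these differences between backgrounds were not tested, each lies below the 2-fold limit, and the untreated array did not detect the PDGFA probe.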

How the results depend on the processing

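No paired analysis was possible because each group holds 1 array and the labels give no replicate numbers, and no replicate could be left out. The CHIR99021 pairs without and with BMP4 were averaged, and an additive fit over the 4 arrays was not run. Single differences of the 7 genes kept direction and call in 201 cases, in 8 a call was lost (IL6 or IL11) and in 1 gained (HBEGF at -1.05 with both factors against untreated cells under median scaling). The mean CHIR99021 difference of PDGFA became -0.01 under median scaling, and the departure from additivity of PDGFB 0.01 with detected probes averaged. Other means and departures kept their sign but moved in size. Without background correction the mean CHIR99021 difference was -0.72 for IL6, -0.49 for HBEGF, -0.08 for LIF and 0.21 for VEGFA. The departure of PDGFA ran from -0.38 to -0.12 over the settings and that of IL6 from 0.06 to 0.16. Counts of calls follow as members, other ligand genes and all genes, with CHIR99021 against untreated cells 3, 1 and 99, both against BMP4 3, 1 and 87, both against untreated 3, 1 and 139, BMP4 against untreated 0, 0 and 32, and both against CHIR99021 0, 0 and 44. With an offset of 50, other ligand genes gave 0 in the first 3 comparisons, the members gave 1 for both against BMP4 (PDGFB), and all genes gave 34, 29, 62, 8 and 17 over the 5. Without background correction the members gave 1 and 1 in the first 2 (PDGFB), other ligand genes 0 in the first 3, and all genes 21, 19, 40, 7 and 13. Median scaling gave 2 other ligand genes for CHIR99021 against untreated (FGF9 and PGF) and 2 for both against untreated (CXCL1 and IL1A), and moved the median of all genes to -0.11 for both against untreated, -0.12 for BMP4 against untreated and -0.11 for both against CHIR99021. The deposited normalized values gave 3 other ligand genes for CHIR99021 against untreated (FGF9, PGF and, higher, FGF6), 1 for BMP4 against untreated (CXCL16), 1 for both against CHIR99021 (CCL2), and 72 and 86 genes overall in the last 2 comparisons. A limit of 1.5-fold gave 5 members for both against BMP4 (HBEGF lower and VEGFA higher besides the 3) and 1 for both against CHIR99021 (LIF, higher), with 15, 7, 14, 7 and 6 other ligand genes and 963, 750, 1097, 524 and 805 genes overall. The split of all calls into higher and lower moved by more than 10 percentage points for CHIR99021 against untreated (36 and 63; 16 and 18 with an offset of 50), both against BMP4 (37 and 50; 19 and 10 with an offset of 50, 12 and 7 without background correction), both against untreated (68 and 71; 39 and 23 with an offset of 50, 26 and 14 without background correction, 53 and 119 under median scaling), BMP4 against untreated (22 and 10; 16 and 21 under median scaling, 41 and 31 in the deposited values, 270 and 254 at 1.5-fold) and both against CHIR99021 (35 and 9; 16 and 1 with an offset of 50, 13 and 0 without background correction, 26 and 17 under median scaling, 53 and 33 in the deposited values, 502 and 303 at 1.5-fold). The cause was not tested, beyond that a larger offset or uncorrected background shrinks differences of dim probes by construction. LIF, VEGFA and PDGFA on every array, and IL6 on those with CHIR99021, lie near the detection limit, which bounds what can be read from them.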
